A study of Caenorhabditis elegans with 4 samples.

Results

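Dissected gonads of young adult C. elegans were compared between the cde-1 mutant carrying the tm1021 allele and the wildtype strain N2, on 2 Agilent arrays that each held both genotypes in different dyes. The arrays were chosen by their titles, as the young adult pair among the 4 arrays of the series; the other pair came from aged adults of the same genotypes. One array carried mutant cDNA in Cy5 and wildtype cDNA in Cy3, and the other carried the same cDNAs with the dyes exchanged. Each RNA sample pooled 250 gonads, so the comparison rests on 1 mutant and 1 wildtype RNA sample, and no test of genotype was possible. Of 7477 genes with a named probe, 2523 (33.7%) had a ratio on both young arrays, among them 301 that lacked one on at least 1 aged array.

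CDE-1 is a terminal uridylyltransferase: it adds uridines to the 3′ ends of small RNAs. In the worm germline its known substrates are the small interfering RNAs bound by the Argonaute CSR-1, which match most germline-expressed genes and act in chromosome segregation. Loss of the enzyme lets CSR-1 small RNAs accumulate and disturbs mitosis in embryos and the inheritance of RNA interference. The gonad is mostly germ cells and oocytes, wrapped in a thin somatic sheath.

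A gene's value is the log2 ratio, likely mutant over wildtype, averaged over the 2 dye orientations; an SD printed with it is the spread between these orientations of the same cDNAs, not between animals. The direction was not stated with the deposited values and was assumed. As deposited the 2 columns correlated positively, at 0.57 across genes, and were read as 1 column changed in sign before deposit. Their number format differed as well. Every one of the 11541 nonzero values deposited for the Cy5-labelled mutant used exponent notation, while 1 of 10775 did for the Cy3-labelled mutant, so the columns had not been written in one way. If the second column was changed in sign before deposit, both run mutant over wildtype. If the first column was changed instead, both run wildtype over mutant, and every higher or lower call below reverses. If no column was turned, the averages below hold dye effects and not genotype effects. Neither the correlation nor the format says which column was changed, and none of these readings was settled here. In bulk RNA from gonads, fewer cells of a type and less RNA per cell cannot be told apart. No named probe represented cde-1, and 0 of 32 marker genes of germline, oocyte, sperm, sheath, intestine, muscle, hypodermis or neurons had one, so neither the mutation nor the tissue could be checked against its defining genes.

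The orientations shared a large part of their variation. Their ratios correlated across the 2523 genes at 0.57 (Pearson) and 0.53 (Spearman), as a description of 2 arrays that share their cDNAs. The gene means had an SD of 0.84 log2 units, and the deviations of each orientation from the mean had an SD of 0.44. Both orientations had the same sign for 1777 genes, 941 of them positive and 836 negative. The median gap between orientations was 0.45 log2 units regardless of sign, and 541 genes had a gap of over 1. Where a gene had several probes with a ratio, their pooled SD was 0.31 on the array with the mutant in Cy5 (21 genes) and 0.53 on the other (25 genes). A gene was called higher or lower when both orientations were beyond 1 log2 unit, a 2-fold ratio, with the same sign. By this rule of size 184 genes (7.29%) were higher and 116 (4.6%) lower, and another 24 (0.951%) had orientations beyond 1 log2 unit in opposite directions.

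**Figure D1:**
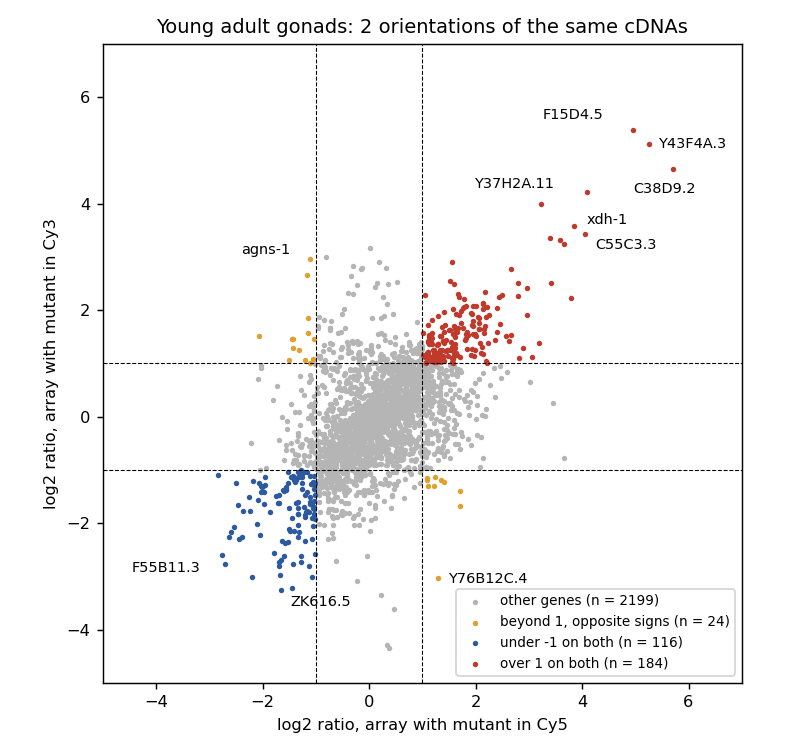
The log2 ratio of each of 2523 genes on the array with the mutant in Cy5 (horizontal) is plotted against that on the array with the mutant in Cy3 (vertical); dashed lines mark 1 and -1. The 184 genes over 1 on both arrays reach above 5, while the 116 genes under -1 on both end near -3, and 24 genes lie in the opposite corners.

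Read as likely mutant over wildtype, the high side reached further than the low side. Means over both orientations went up to 5.18 on the high side and down to -2.74 on the low side. Both orientations exceeded 3 log2 units for 10 genes, and 0 genes lay below -3 on both. Beyond 2 log2 units there were 25 high and 10 low genes. With the array that had the mutant in Cy3 turned in sign, the means ended at 2.36 and -2.04, with 0 genes beyond 2 on both arrays in either direction. The median of the called means was nearly the same in size, at 1.60 for the higher and -1.58 for the lower genes. Orientations of the higher genes lay closer together, with a median gap of 0.26 against 0.49 for the lower genes.

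Most of the leading high genes carry only a sequence name in the annotation. Y43F4A.3 had 5.25 with the mutant in Cy5 and 5.12 with it in Cy3, a 36.3-fold mean ratio. C38D9.2 had 5.71 and 4.65 in that order, which gives the same mean of 5.18. F15D4.5 had 4.95 and 5.38. These 3 genes stood about 1 log2 unit above the next one, Y37H2A.11, which had 4.09 and 4.22. In aged adults C38D9.2 and F15D4.5 were again high, at means of 6.01 and 3.97, while Y43F4A.3 had 1.59 and Y37H2A.11 had 1.20. For Y37H2A.11 the 2 aged orientations were -0.038 and 2.45, so its aged mean rests on 1 array.

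C55C3.3 had 4.05 and 3.42 in young adults and a mean of 4.25 in aged adults. xdh-1, which encodes xanthine dehydrogenase, an enzyme that breaks down purines to uric acid, had 3.85 and 3.59, a 13.2-fold mean ratio; its aged orientations were 0.16 and 3.49. ZK1248.4 had 3.23 and 3.99. In each of these genes both young orientations lay above 3. So did those of T02H6.9 (mean 3.45 ± 0.19), F07B7.2 (3.44 ± 0.30) and Y59E9AR.1 (3.37 ± 0.0235, SD over 2 orientations). The last 5 of the 15 highest were msrp-2 (3.01 ± 1.10), Y53G8AR.9 (2.96 ± 0.65), C18D11.3 (2.72 ± 0.070), ZK1010.5 (2.69 ± 0.39) and the pseudogene C06C3.5 (2.66 ± 0.21). Orientations of msrp-2 were 3.79 and 2.23, the widest gap among the 15.

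On the low side F55B11.3 had -2.70 with the mutant in Cy5 and -2.77 with it in Cy3, a ratio of 0.150. Y57A10A.5 had -2.76 and -2.59. C06E4.6 had -2.21 and -3.01; in aged adults it had a ratio on 1 array, -0.76. F55B11.3 and Y57A10A.5 were near 0 in aged adults, at -0.22 and 0.025. ZK616.5 had -1.65 and -3.25, a gap of 1.59 log2 units. The pseudogenes Y73B3A.16 and C18H2.2 had means of -2.44 ± 0.25 and -2.34 ± 1.24. The other 9 of the 15 lowest ran from -2.38 for F16A11.1 and srlf-34 to -2.17 for K07C5.2. For 8 of the 15 the array with the mutant in Cy3 was lower by 0.77 to 1.76 log2 units, and in the other 7 the orientations lay within 0.47.

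**Figure D2:**
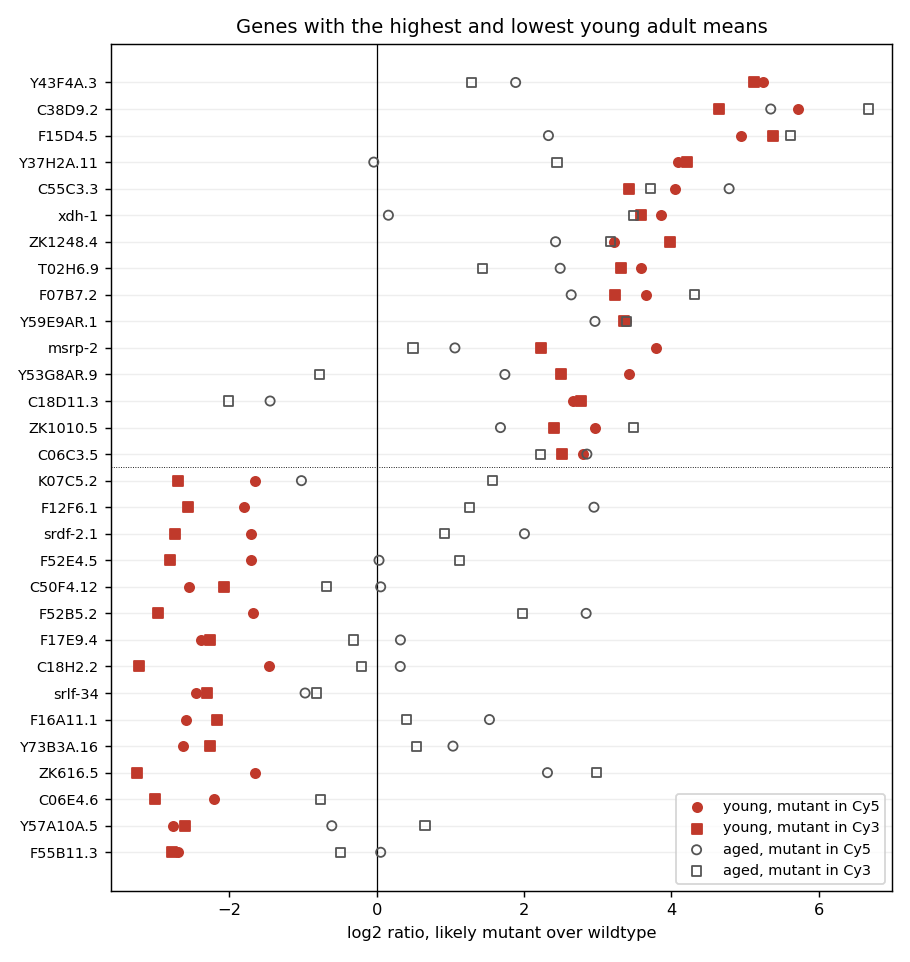
Log2 ratios of the 15 genes with the highest and the 15 with the lowest young adult means are plotted for each array; filled red symbols are young adults, open grey symbols aged adults, circles the arrays with the mutant in Cy5 and squares those with it in Cy3. Both young symbols lie on one side of 0 throughout by choice of the genes, and the aged symbols of the low genes spread over both sides.

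Genes with an assigned name were 561 of the 2523. Of these 35 (6.24%) were called higher and 28 (4.99%) lower, close to the 7.29% and 4.6% of all genes. Named genes of this kind that do not belong to a family below were chosen for description after their values had been seen.

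Some of the 35 higher named genes encode enzymes; how many enzyme genes were measured in all was not counted. Next to xdh-1 stood amdh-1, an amidohydrolase, at 1.41 and 1.97. argn-1, which encodes an arginase, had 1.56 and 1.11, and aass-1, named for the enzyme that starts lysine breakdown, had 1.25 and 1.03. Each of these was past 2-fold in both orientations, and xdh-1 alone was past 8-fold. icpp-55, named for a mitochondrial peptidase, had 2.23 and 1.38, and the cathepsin B-like protease gene cpr-9 had 1.21 and 1.03.

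Other higher named genes had unrelated roles. citk-1, a homologue of citron kinase, which acts in cytokinesis in other animals, had 1.82 and 2.08; its aged orientations were higher still, at 3.99 and 2.61. gyf-1, whose GYF-domain protein acts in microRNA-mediated translational repression, had 2.36 and 1.43. The phosphatase gene ppm-1.D had 1.40 and 1.38. wdr-31, whose WD-repeat protein acts in cilia, had 1.55 and 2.90, and had a ratio on 1 aged array, -0.62. The claudin-like gene clc-24 had 2.01 and 2.08. Of these 5 genes, gyf-1 and ppm-1.D had negative ratios on both aged arrays, with means of -0.66 and -0.96.

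The 28 lower named genes included single genes with known germline or chromatin roles. The meiosis, small RNA and P granule lists described below held 0 lower genes among 6, 5 and 2 measured. With 4.6% of all genes lower, lists this short say little. gcna-1, whose protease protects germ cells from DNA damage, had -2.05 and -2.22. vps-72, which encodes a subunit of the complex that deposits the histone variant H2A.Z, had -2.37 and -1.77. elli-1, whose germline protein modulates RNA interference and P granules, had -1.69 and -1.63. These orientations differed by 0.17, 0.59 and 0.066 log2 units. nse-1, for a subunit of the SMC5/6 complex in DNA repair, was lower too, at -1.05 and -1.23, and ascc-1, for a subunit of a transcriptional coactivator complex, had -1.02 and -2.58. On the aged arrays gcna-1 had 1.95 and 1.42, and elli-1 had 2.32 on the single aged array with a ratio.

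A pair of genes for secreted uterine proteins was also low. ule-3 had -1.52 and -1.24, and ule-5 had -1.33 and -1.60. Both belong to the genes named for expression in the uterine lumen. In aged adults ule-3 had a mean of -0.45 and ule-5 of 0.19.

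Genes of GPI anchor synthesis, which builds the glycolipid that tethers proteins to the cell surface, were mostly below 0. Their roles are given here from mammals. Of the 8 pig genes measured 7 were negative in both orientations, as were 836 of all 2523 genes. Among these 7, 2 were called lower (background 4.6%). The family median was -0.78 beside 0.060 for all genes. The 2 called genes, pigu-1 and pigt-1, encode subunits of the transamidase that attaches the finished anchor. pigu-1 had -1.28 with the mutant in Cy5 and -2.74 with it in Cy3. pigt-1 had -1.04 and -1.73. In both, the array with the mutant in Cy3 was the lower one. Genes for the ethanolamine phosphate transferases pign-1 and pigo-1 had means of -1.14 and -0.67, the first mannosyltransferase pigm-1 had -0.89, and the genes of the first step, pigq-1 and pigc-1, had -0.55 and -0.48. pigx-1, the partner of pigm-1, was the exception, at 2.02 and -0.048. Outside the family, pgap-1, which removes an acyl chain from the attached anchor, had -1.96 and -1.29 and was called lower. pgap-3, which remodels the anchor's lipid, had -0.93 and -1.12. In aged adults the pig median was 0.79.

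The algn and tmed families of the secretory pathway also had medians below 0. In all, 12 of the 24 families with at least 4 measured genes did. All 5 algn genes, which assemble the sugar chain for N-glycosylation on a lipid carrier, had negative means, as did 1168 of all 2523 genes. Their median was -0.56, and 1 was called lower, against 4.6% of all genes. That gene, algn-12, encodes a mannosyltransferase in other species and had -2.46 and -1.66. algn-6 and algn-9 followed at -1.05 and -0.56. The 4 tmed genes, for p24 cargo receptors of early secretory vesicles, were negative in both orientations, as were 836 of all 2523 genes. Their means were -0.77 to -0.17, with 0 called. On the aged arrays the algn and tmed medians were 0.46 and 0.45.

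The eif family, 6 genes named for translation initiation factors, had the lowest family median, at -0.83. Most of them, named for the subunits alpha, beta, delta and epsilon, encode eIF2B, the factor that reloads eIF2 with GTP before each round of initiation. eif-2Bbeta had -1.08 and -3.02 and was the one called lower, against 4.6% of all genes. eif-2Bepsilon had -0.93 and -2.01. eif-2Bdelta had -0.56 and -1.36, and eif-2Balpha had 0.001 and -0.50. The eIF2B genes thus had lower ratios with the mutant in Cy3 than with it in Cy5, by 0.50 to 1.94 log2 units. eif-2D had -0.24 and -1.14. eif-4A3, for the helicase of the exon junction complex, had -0.22 and 1.36. The family median was -0.40 on the array with the mutant in Cy5 and -1.25 on the other.

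Among the gtf, ints and metl genes, single genes were called lower, against 4.6% of all genes. Calls among 5 or 6 genes say little about a family. gtf-2E1, for the large subunit of TFIIE, was called lower at -1.12 and -1.65, while gtf-2E2, for the small subunit, had 0.21 and 0.30. The TFIIF genes gtf-2F1 and gtf-2F2 had means of 0.19 and 0.20. The gtf median over 6 genes was 0.051, close to that of all genes. The 5 ints genes encode parts of Integrator, the complex that cleaves nascent small nuclear RNAs. Of these, ints-11, ints-2, ints-4 and ints-7 were negative in both orientations, as were 836 of all 2523 genes. Their means were -0.68 to -0.019, and ints-9 was positive at 0.51. None of the 5 was called. metl-9, a methyltransferase-like gene, was called lower at -2.02 and -1.32, and the other 4 metl genes had means of -0.64 to -0.050.

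Of 68 listed genes of the small RNA pathways, in which CDE-1 acts, 6 had a named probe and 5 a value. None of the 5 was called, which at backgrounds of 7.29% and 4.6% says little about so few genes. hrde-2, needed to load small RNAs onto a nuclear Argonaute, had -0.92 and -0.64. simr-1, for a germ granule protein that acts between piRNAs and secondary small RNAs, had -0.32 and -0.66. enri-1 had 0.25 and 0.18, enri-2 had -0.86 and 0.56, and tost-1 had 0.13 and -0.14. Only hrde-2, simr-1 and enri-1 of these had orientations of one sign. The 4 pid genes of the piRNA pathway were negative in both orientations, as were 836 of all 2523 genes, with a median of -0.44. For pid-5 the values were -0.043 and -2.62, so its mean of -1.33 rests on the array with the mutant in Cy3. pid-2, pid-3 and pid-4 had means of -0.52, -0.36 and -0.069. The P granule scaffold genes mip-1 and mip-2 had -0.12 and -0.89.

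The 6 meiosis genes with a value had means between -0.38 and 0.35. The synaptonemal complex genes syp-5 and syp-6 had 0.16 and -0.021. zhp-1, zhp-2 and zhp-4, for RING-finger proteins of crossover regulation, had 0.14, 0.35 and -0.38, and dsb-3, needed for meiotic double-strand breaks, had 0.25. None was called. All lay within 1 log2 unit in both orientations. The spermatogenesis genes spe-49, spe-18, spe-36 and spe-48 had means of 0.90, 0.87, -0.020 and -0.41, and their orientations differed by 0.30 to 1.28 log2 units.

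Of the 24 symbol families with at least 4 measured genes, 159 genes in all, 12 had a median above 0 and 12 below. The spig family had the highest median, 1.89, which was 0.04 with the array that had the mutant in Cy3 turned. All 6 of its measured members were positive in both orientations, as were 941 of all 2523 genes, and 4 were called higher, against 7.29% of all genes. spig-17 had 2.89 and 1.28, spig-9 had 1.93 on both arrays, and spig-20 had 1.76 and 2.04. spig-10 had 1.96 and 1.79. The remaining members, spig-16 at 2.59 and 0.83 and spig-1 at 0.90 and 1.77, each missed the fold rule in 1 orientation. The members lie on chromosomes II, V and X, and none of them is the direct neighbour of another. Another 8 spig genes had a named probe without a ratio on both young arrays.

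The nspg family, nematode-specific peptides, came next with a median of 1.57 over 7 of its 12 named genes. nspg-13 had 1.95 and 2.07. nspg-14, its direct neighbour on the X chromosome, had 1.76 and 1.66. nspg-9 had 1.59 and 1.69. With nspg-7.1 at 1.52 and 1.62 and nspg-10 at 1.17 and 1.36, 5 members were called higher, against 7.29% of all genes, and in each of the 5 the orientations lay within 0.19 log2 units. nspg-1 had 0.57 and 1.13, and nspg-7.2 had 1.23 and -0.70. On the aged arrays the 5 called members had means between -0.26 and 0.13. Probe sequences were not used here, so signal shared among related genes was not tested.

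Called genes of the remaining families with positive medians are given against 7.29% higher and 4.6% lower among all genes. With 4 to 23 members, such counts say little about a family. Both orientations were positive for 941 of all 2523 genes. Of 10 lido genes 8 were positive in both orientations, with 1 called, lido-7 at 1.64 and 1.59; lido-9, lido-10, lido-11 and lido-12 lie side by side on chromosome II and had means of 0.65, 0.57, 0.96 and 0.66. Of 12 nlp genes, which encode neuropeptide-like proteins, 9 were positive in both orientations and 0 were called; nlp-88 was highest at 1.96 and 0.47, and nlp-68 lowest at 0.31 and -1.24. The srlf family of 8 had srlf-4 and srlf-1 called higher, at means of 1.30 and 1.24, and srlf-34 called lower at -2.38. The 23 nssp genes had a median of 0.22, 0 called, and means from -0.77 for nssp-83 to 1.15 for nssp-36. The txt family of 4 had a median of 0.73, with 1.10 on the array with the mutant in Cy5 and 0.27 on the other, and 1 called gene, txt-8, at 1.05 and 1.12. The 4 gldi genes, 4 tmem genes and 7 cest genes, named for carboxylesterases, had medians of 0.36, 0.35 and 0.17 and 0 called. The cest member cest-15 is annotated as a pseudogene.

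Transporter families were mixed. Calls in them, and in the rbm and ttc families, stand against 7.29% higher and 4.6% lower among all genes. With so few members such calls say little about a family. zipt-1, a ZIP-type zinc transporter gene, was called lower at -1.62 and -1.38, whereas zipt-2.2 had 1.52 and 0.97. slc-36.1, for an amino acid transporter, was called lower at -1.33 and -1.05, slc-25A18.2, of the mitochondrial carrier group, had -0.70 and -2.18, and the slc median over 9 genes was -0.53. hrg-14, one of the haem-responsive genes, had -2.09 and -1.56, and the other 3 hrg genes had means of -0.33 to 0.49. Among 5 rbm genes, for RNA-binding proteins, rbm-3.1 was called higher at 1.11 and 1.21, and rbm-34, rbm-12 and rbm-17 were negative in both orientations. The 4 ttc genes had a median of -0.056 and 0 called.

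**Figure D3:**
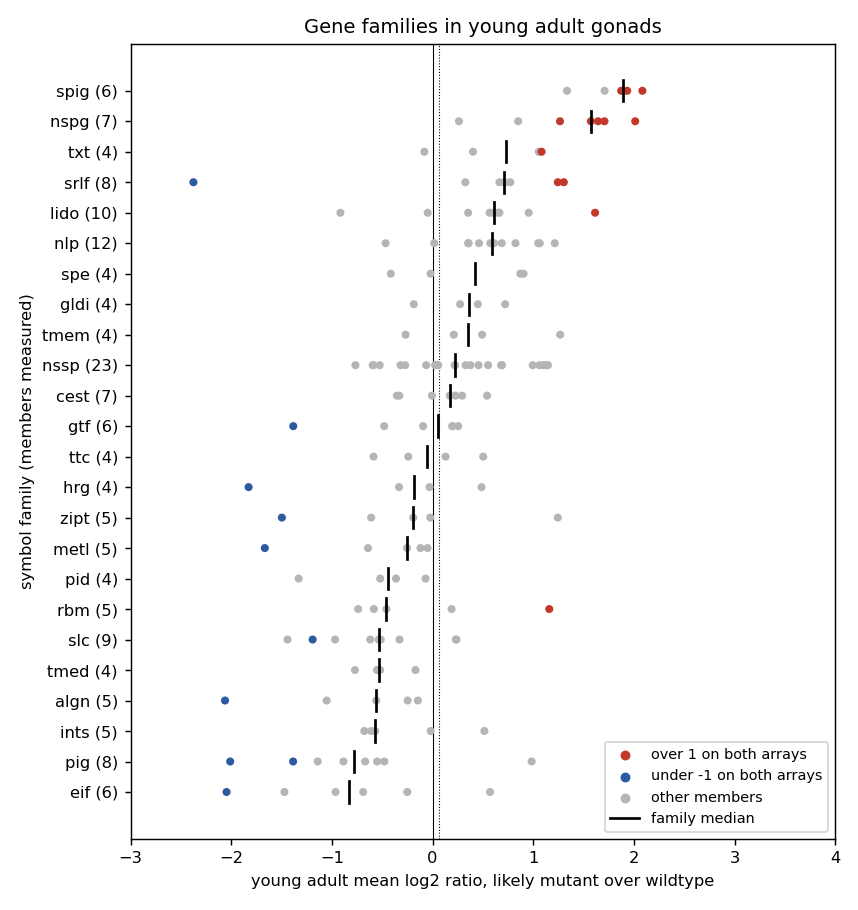
Each point is the young adult mean log2 ratio of 1 gene in the 24 symbol families with at least 4 measured genes, ordered by family median (black bar); red and blue points were called higher and lower, the solid line is 0 and the dotted line the median of all genes. The spig and nspg families lie apart at the top with medians of 1.89 and 1.57, and the pig and eif families are at the bottom with -0.78 and -0.83.

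Across the chromosomes the share of called genes varied moderately. Higher genes made up 8.78% of 296 X-linked genes and 7.11% of 2222 autosomal genes. Lower genes made up 3.38% of the X-linked and 4.77% of the autosomal genes. Chromosome III had 29 higher and 10 lower genes among 433, and chromosome I had 24 higher and 25 lower among 441. Medians ran from 0.0017 on chromosome III to 0.13 on X. These differences were not tested, since they come from 1 RNA sample per genotype.

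**Figure D4:**
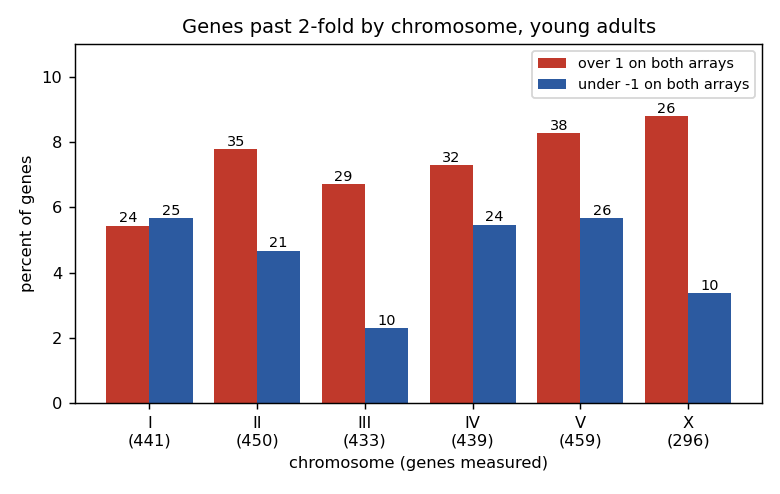
Bars give the percent of measured genes on each chromosome that were over 1 (red) or under -1 (blue) log2 unit on both young adult arrays, with the number of genes above each bar. Chromosome I has nearly equal bars at 5.44% and 5.67%, and X has the tallest red bar at 8.78%.

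Some neighbouring genes were called together; these runs were picked after the values had been seen. Among 439 pairs of direct neighbours that both had a value, 13 pairs had both genes called: 8 pairs both higher, 2 both lower and 3 opposed. Of all genes 7.29% were higher and 4.6% lower, so some such pairs arise without any link between neighbours. Their number was not computed, and pairs within a run share genes. The longest run lay on the X chromosome. There F53A9.1 had 1.73 and 1.99, and F53A9.6 had 1.78 and 2.21. F53A9.7 had 2.04 and 1.88. F53A9.8 completed the run of 4 with 1.35 and 1.52, and on the aged arrays the 4 genes had ratios from -1.31 to 1.31. F53A9.9 of the same region had 0.22 and -3.36. Also on X, F20B6.9 and F20B6.7 had means of 2.27 and 1.56, and both were below -2 on each aged array. On chromosome II, F14D2.7 and F14D2.5 had 1.70 and 1.61, and C16A11.3 and C16A11.4 had -2.10 and -1.15.

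By gene class, pseudogenes were called about as often as coding genes. Of 81 pseudogenes 8 (9.88%) were higher and 3 (3.70%) lower, beside 7.20% and 4.65% of 2432 coding genes. C06C3.5 led them, and F47B7.6 had 2.22 and 2.07. Y9D1A.2 had 2.14 and 2.03. The long noncoding RNA gene Y9D1A.1, from the same clone, had 1.68 and 1.90, and both Y9D1A genes were negative on both aged arrays. F43D2.2 had -0.78 and -2.29, a mean of -1.53 that missed the fold rule. The other lncRNA genes, F31A9.2 and F40H3.6, had means of 0.70 and 0.61, the noncoding gene W08F4.11 had a mean of -0.040, and R08D7.8 had -0.92 and -1.07.

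The 301 genes without a full pair of aged ratios added 8 higher and 4 lower genes. These were smaller shares than the 7.29% and 4.6% of all genes, and the difference was not tested. After wdr-31 came Y24F12A.3 with 1.58 and 2.01 and F14D2.7 with 1.85 and 1.56. Y59H11AM.1 had 1.13 and 1.53, T22B7.7 had 1.28 and 1.35, F44F1.4 had a mean of 1.29, and D1086.8 had 1.41 and 1.05; with srlf-4 these were the 8. On the low side, after C06E4.6 and elli-1, T01D1.4 had -1.14 and -1.80 and K07A1.6 had -1.22 and -1.05. Thus 12 of the 301 were called, while 176 higher and 112 lower genes came from the 2222 with ratios on all 4 arrays.

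In aged adults, where 2965 genes had both ratios, 6.75% were higher and 2.56% lower by the same rule. The stages had separate RNA samples of each genotype, and no stage difference could be tested. Of the 184 genes higher in young adults 26 were also higher in aged adults, which is 14.1% of the young and 13.0% of the aged list. Another 16 were lower there (8.70% and 21.1%). Of the 116 genes lower in young adults 3 were also lower in aged adults (2.59% and 3.95%), and 27 were higher (23.3% and 13.5%). The aged median was 0.072 for the genes higher in young adults and 0.88 for those lower in young adults, beside 0.18 for all 2222 genes. Of the 112 lower genes with both aged ratios 75 were positive on both aged arrays and 10 negative on both, whereas the 176 higher genes split into 64 and 66.

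The genes whose orientations opposed each other mark how far a single orientation can go. Y76B12C.4 had 1.29 with the mutant in Cy5 and -3.03 with it in Cy3. agns-1 had -1.12 and 2.96, and H27A22.1 had -1.17 and 2.66. F37A8.1 had -2.08 and 1.51, Y82E9BR.10 had 1.70 and -1.68, and K10F12.7 had 1.71 and -1.39. Of these 6, which had the widest gaps of the 24, 3 were positive and 3 negative with the mutant in Cy5.

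A ratio on 1 young array alone was present for 1450 genes, whose value on the other array was exactly 0 and was treated as missing. The 860 genes seen only with the mutant in Cy5 had a median of 0.18, with 90 over 1 and 70 under -1. The 590 genes seen only with the mutant in Cy3 had a median of 0.65, with 200 over 1 and 22 under -1. Ratios on that side were thus more often positive, and the cause was not tested. The most extreme young adult ratios of named genes lay in this class. F15A4.2 had 8.64, Y105C5B.20 had 7.47 and the pseudogene Y23H5B.2 had 7.37, each with the mutant in Cy5 only. C34C12.9, F33E11.3 and C17H12.12 had -4.78, -4.29 and -3.92 with the mutant in Cy3 only. None of these 6 has a second orientation behind it in young adults. On the aged arrays Y105C5B.20 had 1.43 and 1.13, and F15A4.2 had -0.85 and 0.57.

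**Figure D5:**
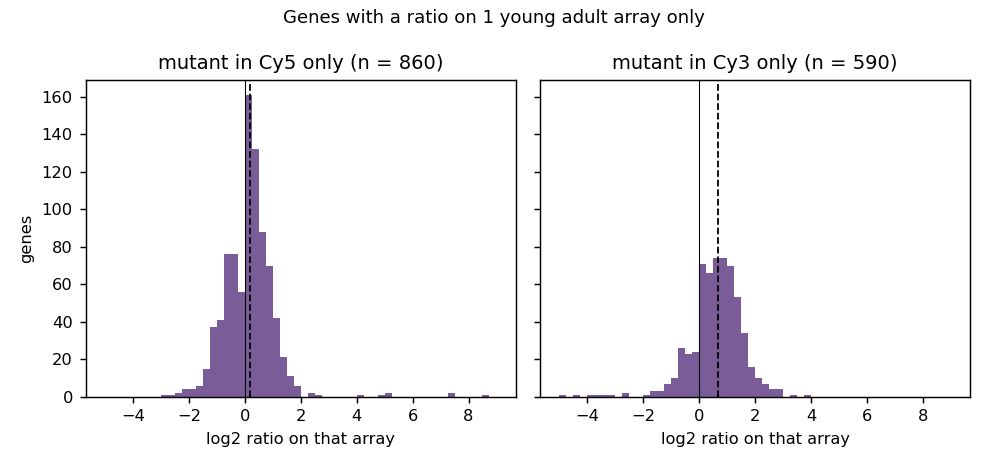
Histograms show the log2 ratios of genes that had a ratio only on the young array with the mutant in Cy5 (left, 860 genes) or only on the one with it in Cy3 (right, 590 genes), in bins of equal width with a dashed line at the median. The left panel centres near 0.18 with a few genes beyond 7, and the right panel is shifted to 0.65.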

How the data were processed

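For each of 22562 probes the authors deposited 1 value an array. The values were taken as log10 ratios of the 2 channels, the convention of Agilent Feature Extraction, which the submitters' processing notes name without a version; the sources used here do not state background correction, dye normalization or array build, and no scanner signals served to check the base. Values were multiplied by 3.32 to give log2 ratios, and exact zeros (48.8% and 52.2% of the young columns, mutant in Cy5 first) were treated as missing. The number of arrays and unknown signal over background limit precision.

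Of the probes, 7718 had 1 gene symbol and 14844 were unnamed; 7691 matched the WBcel235 gene table by identifier, which served for names, classes, chromosomes and gene order. Probes of a gene were averaged per array, then orientations were averaged as 1 replicate. No test was made. The code of the calling rule was run on simulated ratios with known changed genes. Their orientations were set closer together than those of these data, without dye effects. The run therefore does not measure how many calls here are false. Python 3.11.15, pandas 2.3.3 and numpy 2.4.6 were used.

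Members, lists and rules were chosen with earlier results of these data known. Named genes were the 15 highest and 15 lowest called genes, up to 8 each lacking an aged ratio, the 6 widest opposed genes, family members (of families over 6 the 2 highest and 2 lowest, with further members added), the 3 highest and lowest of each noncoding class and the 3 highest and lowest with 1 ratio. Of 14 lists, 10 had no named probe (eggshell, kinetochore and 8 marker lists), and pap-2 and pap-3 of the poly(U) and poly(A) polymerase list had no ratio. No sequence is printed because none was used here.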

Additional observations from a re-analysis of the deposited data

Results flagged for a closer look

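Of 91 genes that were named and called by size in young adults, 79 had all 4 ratios, and 36 of these had both aged arrays on the other side of 0 from both young arrays. Of the 91, 63 followed the naming rule and 28 were chosen after their values were seen. Of the 36, 22 were lower and 14 higher in young adults. Among all called genes with both aged ratios, 75 of 112 lower and 66 of 176 higher genes were opposed in this way. The genes listed below are thus not set apart from called genes in general. Each stage had 1 RNA sample per genotype, so the difference between stages was not tested. Differences below are the young mean minus the aged mean of the log2 ratios.

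Among those lower in young and positive in aged adults, genes with sequence names were ZK616.5 (-5.10), F52B5.2 (-4.73), F12F6.1 (-4.28), F16A11.1 (-3.34), the pseudogene Y73B3A.16 (-3.23), the neighbours C16A11.3 (-3.20) and C16A11.4 (-1.66), and F52E4.5 (-2.83). F52E4.5 was close to 0, at 0.03, in 1 of its aged orientations. Genes with an assigned name were the germ cell protease gene gcna-1 (-3.82), algn-12 of N-glycan assembly (-3.69), srdf-2.1 (-3.68), vps-72 of H2A.Z deposition (-3.25), metl-9 (-3.04), eif-2Bbeta of the eIF2B complex (-2.91), hrg-14 (-2.77), gtf-2E1 of TFIIE (-2.60), zipt-1 (-2.29), nse-1 (-2.23) and ule-5 (-1.66). Genes of the GPI anchor were pigu-1 (-2.55), pgap-1 (-2.41) and pigt-1 (-2.18).

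Among those higher in young and negative in aged adults, genes with sequence names were C18D11.3 (4.45), the neighbours F20B6.9 (4.37) and F20B6.7 (3.74), the noncoding gene Y9D1A.1 (4.16), the pseudogene Y9D1A.2 (3.42), F14D2.5 (2.47), F53A9.8 (2.40) and F53A9.6 (2.32). Those with an assigned name were icpp-55 (2.78), gyf-1 (2.55), ppm-1.D (2.35), nspg-14 (1.97), srlf-1 (1.72) and rbm-3.1 (1.69).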

How the results depend on the processing

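Of 184 higher and 116 lower genes, 180 and 115 remained after centring each array, 172 and 111 after scaling, and 180 and 107 after quantile normalization. With 1.5-fold as the limit the counts were 378 and 305, and with 4-fold 25 and 10. Over all probes they were 542 and 444. Leaving out 1 array gave 336 to 421 higher and 207 to 330 lower genes, since a single orientation then had to pass. Taken as log2, the deposited values gave 7 and 0, the 7 being C38D9.2, C55C3.3, F15D4.5, Y37H2A.11, Y43F4A.3, Y59E9AR.1 and xdh-1.

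With the array that had the mutant in Cy3 turned, the reading in which nothing was turned before deposit, 10 genes were higher and 14 lower, the orientations correlated at -0.57 by construction, and 6 family medians were below 0 in place of 12 (11 to 15 with 1 array left out). The spig median then stayed positive at 0.04, while the nspg, pig and eif medians changed sign, to -0.05, 0.26 and 0.42. Those of hrg, pid, slc, tmed and ttc changed sign too. With zeros kept the correlation was 0.42. Under the turned reading 45 of the 91 named and called genes changed sign. The mean then depends only on the gap between the orientations as deposited. Its sign shows which array had the larger ratio, in these 45 genes and in the rest. Positive values resulted for eif-2Bbeta (0.97), C18H2.2 (0.88), ZK616.5 (0.80), ascc-1 (0.78), pigu-1 (0.73), F52B5.2 (0.65), F52E4.5 (0.55), K07C5.2 and srdf-2.1 (0.52 each), C16A11.3 (0.51), C06E4.6 (0.40), F12F6.1 (0.38), pigt-1 (0.35), T01D1.4 (0.33), gtf-2E1 (0.26), ule-5 (0.13), nse-1 (0.09), gcna-1 (0.08) and F55B11.3 (0.04). Negative values resulted for wdr-31 (-0.68), ZK1248.4 (-0.38), F44F1.4 (-0.29), amdh-1 (-0.28), F15D4.5 and Y24F12A.3 (-0.22 each), F53A9.6 (-0.21), Y59H11AM.1 (-0.20), spig-20 (-0.14), citk-1, F53A9.1 and srlf-1 (-0.13 each), Y9D1A.1 (-0.11), nspg-10 (-0.09), F20B6.9 and F53A9.8 (-0.08 each), Y37H2A.11 (-0.07), F20B6.7 and nspg-13 (-0.06 each), C18D11.3, nspg-7.1, nspg-9 and rbm-3.1 (-0.05 each), txt-8 (-0.04), and clc-24 and T22B7.7 (-0.03 each).

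No other of the 9 alternatives for single genes changed a sign among the 91. This followed largely from the choice of genes. Both orientations of each lay beyond 1 log2 unit on the same side of 0, so leaving out 1 array could not change a sign. The spig median was 0.42 and the nspg median 0.64 with zeros kept, and the cest, nssp, spe, srlf, ttc and txt medians were exactly 0 there. Without the array with the mutant in Cy5 the cest, gtf, metl, nssp and spe medians changed sign, and without the other array that of hrg. Without the array with the mutant in Cy3 the eif median was -0.40. No paired analysis was possible because every ratio already sets mutant against wildtype cDNA on 1 array and no test was made.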

Other observations

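Unnamed probes carried ratios of the same kind. Among 6541 unnamed probes with a ratio on both young arrays, 356 (5.44%) were over 1 log2 unit on both and 325 (4.97%) under -1; of 2618 named probes 186 were over 1 and 4.55% under -1. The orientations correlated at 0.59 over the unnamed and 0.57 over the named probes. Means over 3 log2 units were found for 29 unnamed and 11 named probes, and a mean under -3 for 1 unnamed probe. The highest unnamed mean was 4.34 and the lowest -3.33, so the genes behind the leading low ratio and many high ratios are not named here.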
